A study of Mus musculus with 9 samples.

Results

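Matricellular proteins are secreted into the extracellular matrix, where they act on the adhesion, migration and signalling of cells more than on the build of the tissue. Several of their genes are known targets of YAP, the transcriptional effector of the Hippo pathway, which enters the nucleus when the kinases Lats1 and Lats2 do not hold it back and binds DNA through TEAD factors. In the liver, stellate cells and other fibroblasts make much of this matrix, and a stiff matrix is itself known to favour nuclear YAP. The 10 genes described here were taken by symbol and are Fn1, Tnc, Tnxb, Postn, Sparc, Thbs1, Thbs2, Ctgf (now Ccn2), Cyr61 (now Ccn1) and Ankrd1. All 10 were found among the 24453 genes listed, and all 10 were among the 13651 genes that had enough reads to be tested.

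The data were RNA sequencing of 3 groups of mouse liver cells on the C57BL/6J strain, with 3 libraries in each group and cells of 3 to 5 mice pooled in each library. Hepatic stellate cells (HSCs) came from the livers of wild-type mice, labelled normal, and were separated by density gradient. CCl4-fib were CD45-negative, GFP-positive cells sorted by flow cytometry from Col1a2-GFP Tg mice, in which the promoter of the collagen gene Col1a2 drives GFP. These mice received the hepatotoxin carbon tetrachloride (CCl4) into the peritoneum 2 times per week over 8 weeks, given as 1 ml/kg in a 1:4 dilution with olive oil. NASH-fib were sorted with the same gate from MC4R-KO mice, which lack the melanocortin 4 receptor, bred to carry Col1a2-GFP Tg. Males of this cross were fed a Western diet for 20 weeks from an age of 8 weeks to develop non-alcoholic steatohepatitis (NASH). Both fibroblast groups therefore carry the GFP transgene, and the gate was set for cells in which that promoter was active. How pure the sorted cells were is not known here, and markers of other cells are given below. Since HSCs were separated by density and fibroblasts by sorting, the isolation and the group cannot be told apart in any comparison with HSCs.

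HSC libraries held 3071070 to 3825522 reads on genes, CCl4-fib libraries 4687349 to 5634273 and NASH-fib libraries 3289758 to 5021156. The knocked-out receptor gene Mc4r had 4 and 13 reads in NASH-fib replicates 1 and 2, libraries of the knockout, and 0 in every other library. So few reads could not check the labels. HSC replicate 2 and NASH-fib replicate 1 stood apart from the other libraries. They had the fewest reads (3071070 and 3289758), and both names start with 11-3, as does that of CCl4-fib replicate 1. Their deviations from their group means correlated at 0.645 across genes. CCl4-fib replicate 1 gave -0.072 with HSC replicate 2 and -0.127 with NASH-fib replicate 1. Such deviations cancel within a group, so pairs are tied, and NASH-fib replicates 1 and 3 gave -0.588 and 0.514 with HSC replicate 3. On the 10 most read genes fell 4.32% of reads in HSC replicate 2 and 4.07% in NASH-fib replicate 1. The other 7 libraries had 3.07% to 3.37%. The stellate cell markers, among them Lrat and Reln, summed to values of 31000.3 to 37112 in HSCs and of 2557 to 6158 in both kinds of fibroblast. The fibroblast markers, among them Col1a1 and Timp1, summed to 31227 to 48512 in HSCs, 65297 to 73034 in CCl4-fib and 44731 to 58778 in NASH-fib. The labels and the sums therefore pointed the same way for stellate cell markers, and for fibroblast markers in CCl4-fib. Fibroblast sums of NASH-fib and HSCs overlapped. In the fit described below, 5 of 8 stellate cell markers were called lower in each kind of fibroblast, while Des and Pdgfrb had higher estimates. Of the 9 fibroblast markers, 6 in CCl4-fib and 5 in NASH-fib were called higher, while Dcn and Lum had lower estimates. HSC libraries also held summed hepatocyte markers of 33682 to 65141 and sinusoidal endothelial markers of 7188 to 15348.

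Of the 10 genes, 6 were called higher and 0 lower in CCl4-fib than in HSCs, beside 16.2% (higher) and 11.7% (lower) of all tested genes. In NASH-fib against HSCs, 3 were called higher and 1 lower, against 8.23% and 4.30% of all tested genes. In NASH-fib against CCl4-fib, 0 were called higher and 2 lower, against 4.97% and 5.66% of all tested genes, or 678 and 773 genes, a split that was 802 and 563 by edgeR with TMM. Calls were made in a limma fit on log2(value + 1), where a value is the deposited normalised read count, and needed both an adjusted p under 0.05 and a log2 fold change whose size was 1 or more. The median log2 fold change of the 10 genes was 2.35 in CCl4-fib and 0.56 in NASH-fib against HSCs, beside 0.18 and -0.022 over all tested genes. Both of these comparisons used the same 3 HSC libraries. Between the 2 kinds of fibroblast the median was -0.49, beside -0.11 over all tested genes. The p-values reflect the spread between pools of mice, and no exact permutation test (two-sided) of a single gene can go below a p of 0.1 with 3 libraries on each side. In bulk libraries, fewer cells of a type and less RNA per cell cannot be told apart.

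**Figure D1:**
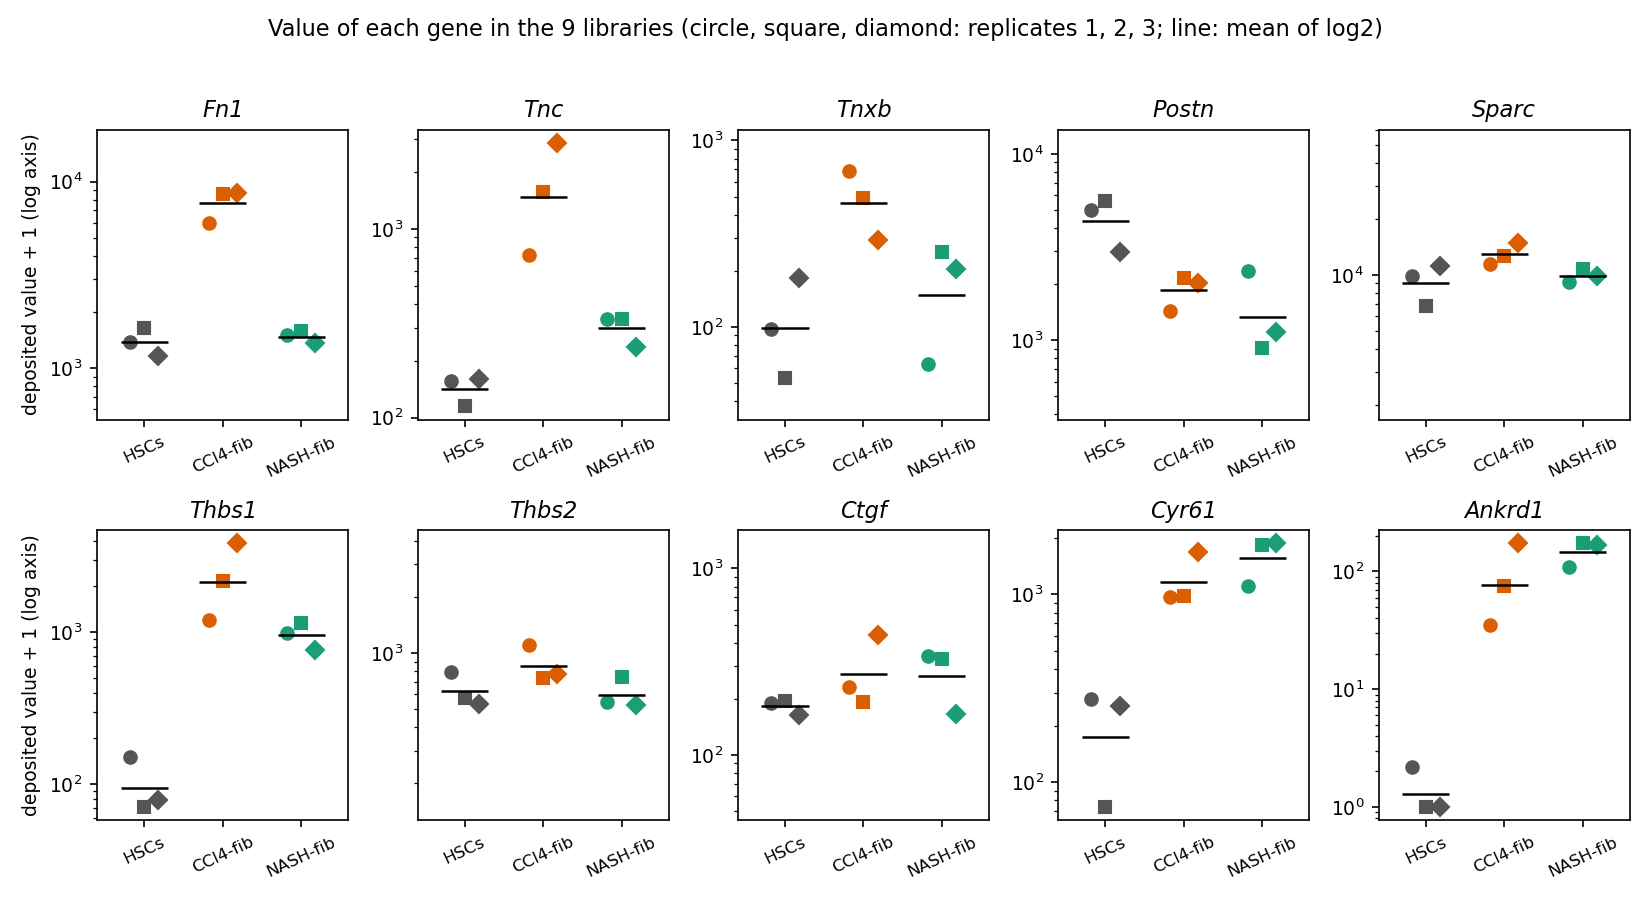
Deposited value + 1 of each gene in the 9 libraries, each panel with a log axis of its own (circles, squares and diamonds are replicates 1, 2 and 3, and the line is the mean of the log2 values). Thbs1, Cyr61 and Ankrd1 were above every HSC library in all 6 fibroblast libraries, Fn1 and Tnc were highest in CCl4-fib, and Postn was highest in HSCs.

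The YAP target genes were led by Ankrd1 (NM_013468, mm10, chromosome 19, 36111965 to 36119844, minus strand), which encodes an ankyrin repeat protein of muscle sarcomeres and nuclei. Cyr61 (NM_010516, chromosome 3, 145646971 to 145649985, minus strand) and Ctgf (NM_010217, chromosome 10, 24595442 to 24598682, plus strand) encode secreted proteins of the CCN family that bind integrins. The 250 bases before the start site of Cyr61 and Ankrd1 are shown because these are the YAP target genes of the set that were called higher in both kinds of fibroblast. Sequences are from RefSeq on GRCm38.p6, 5′ to 3′ on the strand of the gene, with the core of the TEAD motif (GGAATG, or CATTCC on the other strand) in capitals.
Cyr61, chr3:145649986-145650235: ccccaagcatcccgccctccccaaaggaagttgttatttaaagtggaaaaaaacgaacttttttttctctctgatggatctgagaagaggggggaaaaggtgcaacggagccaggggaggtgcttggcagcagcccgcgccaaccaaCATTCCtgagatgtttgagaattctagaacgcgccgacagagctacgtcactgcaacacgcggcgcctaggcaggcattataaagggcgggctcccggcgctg
Ankrd1, chr19:36119845-36120094: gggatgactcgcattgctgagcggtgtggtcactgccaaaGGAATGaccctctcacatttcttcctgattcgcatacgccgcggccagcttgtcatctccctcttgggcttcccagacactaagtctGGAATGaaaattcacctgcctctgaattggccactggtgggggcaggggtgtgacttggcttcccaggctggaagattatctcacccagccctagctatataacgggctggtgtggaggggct
The Cyr61 window held 1 match, 103 to 98 bases before the start site, and the Ankrd1 window held 2, at 210 to 205 and at 123 to 118 bases before it. Of 32851 such windows, 12.6% held at least 1 match. Windows were on hand for 7 of the 10 genes (not Ctgf, Fn1 and Thbs1), and those of Postn, Tnc, Sparc, Thbs2 and Tnxb had no match. Among the longer list of YAP target genes described later, 15 had a window and 6 of these held the motif, namely Amotl2, Ankrd1, Axl, Crim1, Cyr61 and Ptpn14. A TATAAA box lay 25 to 20 bases before the Cyr61 start, which 7.59% of windows hold anywhere. The motif matches are letters in a window and were not tested as binding sites.

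Ankrd1 had values of 1.17, 0 and 0 in HSC replicates 1, 2 and 3, of 34.1, 74.0 and 173 in CCl4-fib and of 109, 173 and 166 in NASH-fib. Every fibroblast library was thus above every HSC library, in which the gene had at most 1 read. Against a floor of 3 reads per library, a mean value of 3.82 in HSCs, the mean of Ankrd1 was at least 24.5-fold higher in CCl4-fib. In NASH-fib it was at least 39.1-fold higher. Its adjusted p was 0.000137 in CCl4-fib and 9.81e-05 in NASH-fib. The CCl4-fib values spread over a wider range than those of NASH-fib, and the fibroblast groups overlapped, with a log2 fold change of 0.93 (95% interval -0.52 to 2.38, adjusted p = 0.374) in NASH-fib against CCl4-fib.

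Cyr61 had values of 277, 72.8 and 255 in HSCs, of 962, 977 and 1686 in CCl4-fib and of 1109, 1831 and 1870.3 in NASH-fib. All fibroblast values lay above the HSC values, of which replicate 2, a library that stood apart, was the lowest. CCl4-fib exceeded HSCs by a log2 fold change of 2.75 ± 0.52 (SE, adjusted p = 0.00299), with the mean value 6.00-fold that of HSCs. In NASH-fib it was 3.17 ± 0.52 (SE, adjusted p = 0.00223), with the mean value 7.96-fold that of HSCs. Without HSC replicate 2 and NASH-fib replicate 1, both calls held, at log2 fold changes of 2.13 and 2.80. Between the fibroblast groups Cyr61 differed by 0.42 (95% interval -0.72 to 1.56) on the log2 scale, which did not pass the test.

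Ctgf stood at 189, 194 and 163 in HSCs, at 231, 192 and 438 in CCl4-fib and at 339.8, 328 and 165 in NASH-fib. The groups overlapped, and within each fibroblast group a single library set the range, CCl4-fib replicate 3 at the top and NASH-fib replicate 3 at the bottom. Against HSCs, the log2 fold change was 0.57 (95% interval -0.37 to 1.50, adjusted p = 0.340) in CCl4-fib and 0.54 (95% interval -0.40 to 1.48, adjusted p = 0.552) in NASH-fib, neither of which passed. Ctgf shares 665 exonic bases with Gm15270 on the opposite strand in GENCODE, and reads of both strands were counted, so reads of the 2 genes cannot be told apart there.

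**Figure D2:**
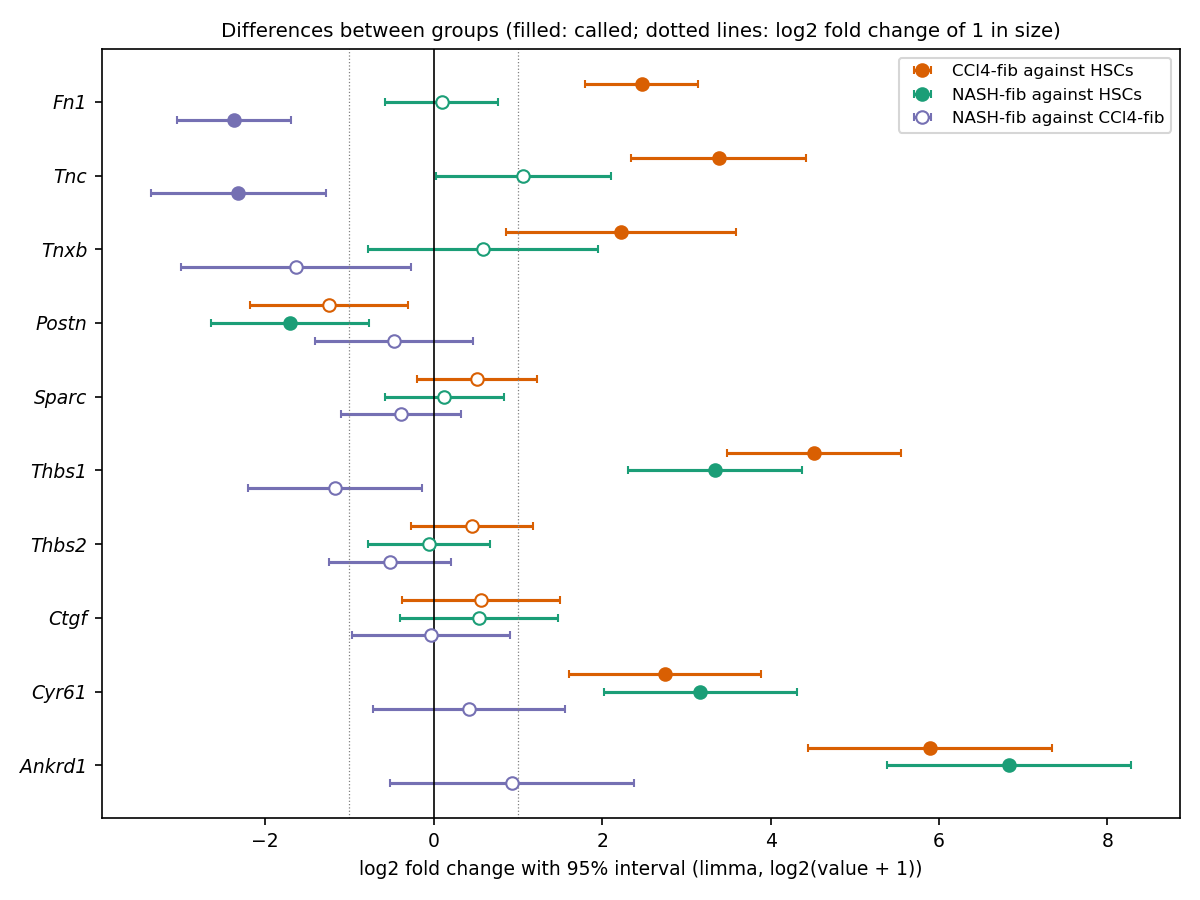
Log2 fold change with its 95% interval (limma, log2(value + 1)) of each gene in CCl4-fib against HSCs, NASH-fib against HSCs and NASH-fib against CCl4-fib, filled where called and with dotted lines at a size of 1. Ankrd1, Thbs1 and Cyr61 lay far to the right against HSCs in both kinds of fibroblast, while Fn1 and Tnc were called higher in CCl4-fib and lay to the left in NASH-fib against CCl4-fib.

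Thbs1 (NM_001313914, chromosome 2, 118111876 to 118127133, plus strand) and Thbs2 (NM_011581, chromosome 17, 14665500 to 14694262, minus strand) encode thrombospondins, trimeric glycoproteins that inhibit the growth of blood vessels. Thrombospondin 1 is also known to activate latent TGF-β. Thbs1 had values of 149.6, 69.9 and 77.7 in HSCs, of 1195, 2165 and 3849 in CCl4-fib and of 989.6, 1143 and 764 in NASH-fib. The 3 groups did not overlap, and CCl4-fib lay above NASH-fib, which lay above HSCs. On the log2 scale, the difference from HSCs was 4.51 ± 0.47 (SE, adjusted p = 9.49e-05) in CCl4-fib, a mean value 24.2-fold that of HSCs, and 3.34 ± 0.47 (SE, adjusted p = 0.000899) in NASH-fib, a mean value 9.74-fold that of HSCs. NASH-fib against CCl4-fib gave -1.17 (95% interval -2.21 to -0.14, adjusted p = 0.131), which did not pass. Thbs1 shares 208 exonic bases with Gm29233 on the opposite strand.

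Thbs2, in contrast to Thbs1, had values of 790.2, 574 and 531 in HSCs, of 1106, 734 and 768 in CCl4-fib and of 544, 745 and 524 in NASH-fib. All 3 groups overlapped. Log2 fold changes were 0.46 (95% interval -0.27 to 1.18, adjusted p = 0.320) in CCl4-fib and -0.060 (95% interval -0.79 to 0.67, adjusted p = 0.962) in NASH-fib against HSCs. The latter turned to 0.0065 when the values were rescaled by TMM.

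Tnc (NM_011607, chromosome 4, 63959785 to 64047015, minus strand) encodes tenascin C, a hexameric glycoprotein that appears in wounds and fibrotic tissue, and Tnxb (NM_031176, chromosome 17, 34670535 to 34719815, plus strand) encodes tenascin X, which joins collagen fibrils in loose connective tissue. Tnc had values of 154, 114 and 159 in HSCs, of 723, 1563 and 2857 in CCl4-fib and of 330.3, 332 and 235 in NASH-fib. No group overlapped another, and CCl4-fib was the highest. The log2 fold change of CCl4-fib against HSCs was 3.38 ± 0.47 (SE, adjusted p = 0.000537), and the mean value was 12.0-fold that of HSCs. In NASH-fib against HSCs it was 1.06 (95% interval 0.024 to 2.11, adjusted p = 0.209), which did not pass. NASH-fib was called lower than CCl4-fib, at -2.32 ± 0.47 (SE, adjusted p = 0.0171), with CCl4-fib at a mean value 5.73-fold that of NASH-fib. That call was lost without CCl4-fib replicate 2 (adjusted p = 0.0782) and without NASH-fib replicate 3 (adjusted p = 0.0645).

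Tnxb had values of 97.0, 52.4 and 182 in HSCs, of 681, 491 and 293 in CCl4-fib and of 62.5, 251 and 202 in NASH-fib. CCl4-fib lay above both other groups, which overlapped each other. CCl4-fib was called higher than HSCs, at a log2 fold change of 2.23 ± 0.62 (SE, adjusted p = 0.0223), with a mean value 4.42-fold that of HSCs. The call was lost in 5 of 20 alternatives: without HSC replicate 1 (adjusted p = 0.0608), HSC replicate 2 (0.0739), CCl4-fib replicate 1 (0.0915) or CCl4-fib replicate 2 (0.0732), and with the date in the library names as a block (0.0745). NASH-fib against HSCs gave 0.59 (95% interval -0.78 to 1.96), and NASH-fib against CCl4-fib gave -1.64 (95% interval -3.01 to -0.27, adjusted p = 0.113), neither of which passed.

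Fn1 (NM_010233, chromosome 1, 71585473 to 71653234, minus strand) encodes fibronectin, on which integrins pull and on which collagen is laid down, and which hepatocytes also secrete into plasma. Its values were 1384, 1637 and 1156 in HSCs, with 5970.3, 8594 and 8694 in CCl4-fib and with 1497, 1575 and 1357 in NASH-fib. Every CCl4-fib library lay above every other library, while HSCs and NASH-fib overlapped. Fn1 was called higher in CCl4-fib than in HSCs, at a log2 fold change of 2.47 ± 0.30 (SE, adjusted p = 0.000261), a mean value 5.57-fold that of HSCs. NASH-fib against HSCs gave 0.10 (95% interval -0.58 to 0.77, adjusted p = 0.929). NASH-fib was called lower than CCl4-fib, at -2.37 ± 0.30 (SE, adjusted p = 0.00562), with CCl4-fib at a mean value 5.25-fold that of NASH-fib. The 15 hepatocyte markers, none of which was at 0 throughout a group, summed to 14789 to 21767 in CCl4-fib, 33682 to 65141 in HSCs and 16017 to 48400.4 in NASH-fib. Of these, 11 were called lower in CCl4-fib than in HSCs (median log2 fold change -3.41), beside 11.7% of all tested genes. In NASH-fib against CCl4-fib, 8 were called higher (median 2.82), beside 4.97%. In NASH-fib against HSCs, 0 were called in either direction. Fn1 also shares 292 exonic bases with the antisense transcript Apol7d, and Tnc shares 176 with 8030451A03Rik. The part of hepatocytes in the Fn1 values was not tested.

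Postn (NM_015784, chromosome 3, 54361107 to 54391041, plus strand) encodes periostin, which aids the cross-linking of collagen and binds integrins, and was the one gene of the set with higher values in HSCs than in both kinds of fibroblast. It had values of 5022, 5577 and 2971 in HSCs, of 1435, 2159 and 2039.8 in CCl4-fib and of 2353, 908 and 1111 in NASH-fib. No fibroblast library reached the lowest HSC library. NASH-fib was called lower, at a log2 fold change of -1.71 ± 0.42 (SE, adjusted p = 0.0225) and with HSCs at a mean value 3.10-fold that of NASH-fib. CCl4-fib gave -1.24 (95% interval -2.18 to -0.30, adjusted p = 0.0511), with HSCs at 2.41-fold, which did not pass. The call in NASH-fib was lost in 7 of 20 alternatives and the CCl4-fib value passed in 7 of 20, so both stood close to the threshold. By edgeR the NASH-fib call had an adjusted p of 0.0716, with the date block 0.324, and when only the 2 groups were fitted 0.0718. It was also lost without HSC replicate 1 (0.0852), HSC replicate 2 (0.0664), NASH-fib replicate 2 (0.0930) or NASH-fib replicate 3 (0.0859).

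Sparc (NM_009242, chromosome 11, 55394159 to 55420080, minus strand) encodes osteonectin, a collagen-binding protein that aids the deposition of fibrils. Its values were 9798, 6767 and 11162 in HSCs, with 11407, 12656 and 14869.9 in CCl4-fib and with 9094, 10719 and 9849 in NASH-fib. CCl4-fib did not overlap either other group, and HSCs and NASH-fib overlapped each other. The log2 fold change was 0.51 (95% interval -0.20 to 1.22, adjusted p = 0.256) in CCl4-fib and 0.13 (95% interval -0.58 to 0.83, adjusted p = 0.906) in NASH-fib against HSCs. Counting was limited to 3 reads per position, and Sparc held 5.47 to 5.93 reads per exonic base in CCl4-fib, 1.77 to 3.55 in HSCs and 2.54 to 4.58 in NASH-fib, so its values can be flattened, most in CCl4-fib. None of the other 9 genes exceeded 1.35 reads per base. Some genes of the lists used here did, among them Dcn (up to 8.75) and Gpm6a (up to 5.29), so sums that hold them can be flattened too.

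**Figure D3:**
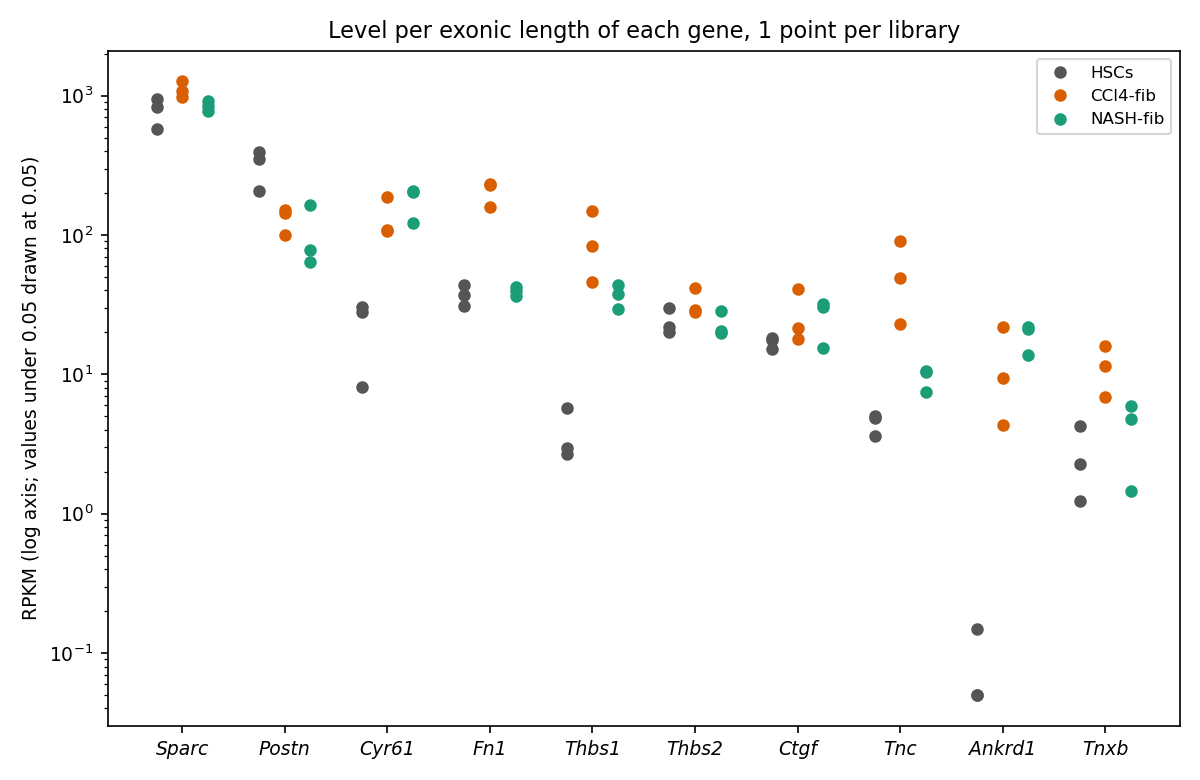
Level per exonic length (RPKM, log axis) of each gene with 1 point per library, ordered from left to right by the mean over the 3 groups. Sparc was the highest in all groups, at means from 786 to 1104, and Ankrd1 in HSCs was the lowest value drawn.

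Levels between genes can be compared per exonic length, in RPKM (reads on a gene scaled for its exonic length and for the reads on genes in the library), and are given as mean ± SD of 3 libraries. In HSCs, Sparc stood at 786 ± 191 and Postn at 317 ± 96.2, and no other gene of the set was above 37.2 ± 6.42, the level of Fn1. Cyr61 at 22.3 ± 12.4 did not differ beyond its spread from Thbs2 at 23.9 ± 5.27 or from Ctgf at 17.0 ± 1.57, while Thbs2 lay above Ctgf in all 3 libraries. Tnc at 4.50 ± 0.79, Thbs1 at 3.81 ± 1.69 and Tnxb at 2.59 ± 1.54 followed. The order was another one in CCl4-fib, where Sparc at 1104 ± 149 was followed by Fn1 at 207 ± 41.2, with Cyr61 at 134 ± 45.8, Postn at 132 ± 27.2 and Thbs1 at 92.3 ± 51.6 within a spread of one another. Tnc stood at 54.2 ± 34.0, Thbs2 at 33.0 ± 7.79, Ctgf at 26.8 ± 12.3, Ankrd1 at 11.9 ± 9.09 and Tnxb at 11.5 ± 4.55. In NASH-fib, Cyr61 at 177 ± 47.4 and Postn at 102 ± 54.8 came after Sparc at 841 ± 69.1. Fn1 at 39.4 ± 2.94 and Thbs1 at 37.1 ± 7.33 did not differ beyond their spread, nor did Ctgf at 25.9 ± 9.11, Thbs2 at 22.9 ± 4.65 and Ankrd1 at 19.0 ± 4.49. Tnc at 9.46 ± 1.76 and Tnxb at 4.04 ± 2.30 were the lowest there.

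Within CCl4-fib, Ankrd1, Thbs1, Tnc, Cyr61, Fn1 and Sparc had their lowest value in replicate 1 and their highest in replicate 3, while Tnxb had the reverse. Fn1 spread over 5970.3 to 8694 and Tnc over 723 to 2857, so the spread among pools of 1 treatment differed between genes. The 3 CCl4-fib libraries carry 3 different dates at the start of their names, whose meaning the labels do not give. Where a date held libraries of both groups, the called genes kept their direction within it. These were 6 of 6 in each of the 2 dates for CCl4-fib against HSCs and 4 of 4 in the 1 date for NASH-fib against HSCs. In each of the 2 dates for NASH-fib against CCl4-fib they were 2 of 2. For each called gene the 2 groups did not overlap, so any subset of libraries keeps the direction and the counts could not have differed. The 1 date for NASH-fib against HSCs held only HSC replicate 2 and NASH-fib replicate 1, the libraries that stood apart. Within the dates for NASH-fib against CCl4-fib, Fn1 differed by -2.00 and -2.57 and Tnc by -1.13 and -3.35 on the log2 scale. These are differences of 1 to 2 libraries with no test. With the date as a block, 5, 3 and 2 genes were called in the 3 comparisons, Tnxb and Postn losing their calls as given above. Over all 13651 tested genes, that block gave 1422 higher and 1054 lower, 549 and 119, and 344 and 249. Without HSC replicate 2 and NASH-fib replicate 1, 7, 4 and 2 genes were called, with Postn added in CCl4-fib against HSCs. Over all 13999 genes tested in that fit, 2709 were called higher and 1739 lower, 1346 and 704, and 766 and 995.

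Across the 9 libraries, pairs of the 10 genes that varied most alike were Cyr61 and Ankrd1 (Pearson's r of log2(value + 1) = 0.95), Thbs1 and Ankrd1 (0.93) and Fn1 and Tnc (0.92). Postn ran against Cyr61 (-0.87). Ctgf and Cyr61, of the same family, stood at 0.51. The 9 libraries fall into 3 groups, so each r includes the group differences, and it is given as a description with no test. Over all tested genes, those most like each gene were Gfra4 (0.993) and Klf4 (0.988) for Ankrd1, Vwa3a (0.991) and Fmod (0.989) for Cyr61, and Mlana (0.894) and Speg (0.872) for Ctgf. Calcb (0.989) and Wnt5a (0.988) were nearest to Thbs1, Rexo4 (0.907) and Dhx37 (0.896) to Thbs2, H19 (0.972) and Adamts16 (0.971) to Tnc, and Armc6 (0.991) to Tnxb. For Fn1 they were Mro (0.992) and Cryaa (0.990), which were at 0 in every HSC and NASH-fib library. Marcks (0.974) and Hmcn1 (0.973), the latter the matrix protein hemicentin, were nearest to Postn, and Ube2l3 (0.987) and Zfp821 (0.967) to Sparc. Ctgf and Thbs2, whose groups overlapped, had the weakest nearest genes.

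A list of 27 genes of the matricellular families, 9 of them already described, had 21 genes with enough reads to be tested. In CCl4-fib against HSCs, 11 were called higher, 1 lower and 9 did not pass, beside 16.2% (higher) and 11.7% (lower) of all tested genes. The median log2 fold change was 2.23, beside 0.18 over all tested genes. Without the genes already described, 6 of 12 were called higher and 1 lower, with a median of 1.55. Thbs4, a pentameric thrombospondin, had values of 0, 1.46 and 0 in HSCs, with 221, 216 and 212 in CCl4-fib and with 36.7, 68.6 and 61.9 in NASH-fib, which is at least 56.6-fold (CCl4-fib) and 14.6-fold (NASH-fib) higher than the floor in HSCs. Nov, a CCN protein that counters Ctgf, was at 0 in all HSC libraries and at 233, 139 and 121 in CCl4-fib, at least 43.0-fold higher than the floor, and at 93.8, 50.8 and 70.8 in NASH-fib, at least 18.8-fold higher. Thus Nov had no reads in HSCs and Thbs4 at most 1 read in any HSC library, while both were read in all 6 fibroblast libraries. Thbs3 and the CCN gene Wisp2 were also called higher in both kinds of fibroblast, at log2 fold changes of 6.09 and 4.41 in CCl4-fib and of 3.79 and 3.44 in NASH-fib. Spock2, a proteoglycan of the Sparc family, was called higher at 3.24 (adjusted p = 0.00436) in CCl4-fib and at 4.38 (adjusted p = 0.00132) in NASH-fib.

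Tgfbi, a secreted relative of periostin, was the gene of this list that was called lower in CCl4-fib, with values of 6874, 4514 and 6702 in HSCs, of 491, 628 and 485 in CCl4-fib and of 492, 867 and 566 in NASH-fib. Both fibroblast groups lay far below HSCs, at log2 fold changes of -3.48 and -3.25, so Postn and Tgfbi, the periostin family of the list, had the same order of HSCs above fibroblasts. In NASH-fib against HSCs, 8 genes of the list were called higher, 3 lower and 10 did not pass, beside 8.23% (higher) and 4.30% (lower) of all tested genes. The median was 1.06, beside -0.022 over all tested genes. Without the genes already described, 6 of 12 were called higher and 2 lower there, with a median of 1.89. The third lower gene was the CCN gene Wisp1, at 180.0, 239 and 161 in HSCs, with 160.3, 348 and 589 in CCl4-fib and with 82.9, 53.4 and 40.3 in NASH-fib. NASH-fib against CCl4-fib had 0 higher and 4 lower calls in the list, beside 4.97% and 5.66% of all tested genes. The lower calls were Fn1, Tnc, Wisp1 at -2.49 (adjusted p = 0.0168) and Thbs4 at -1.99 (adjusted p = 0.0417).

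**Figure D4:**
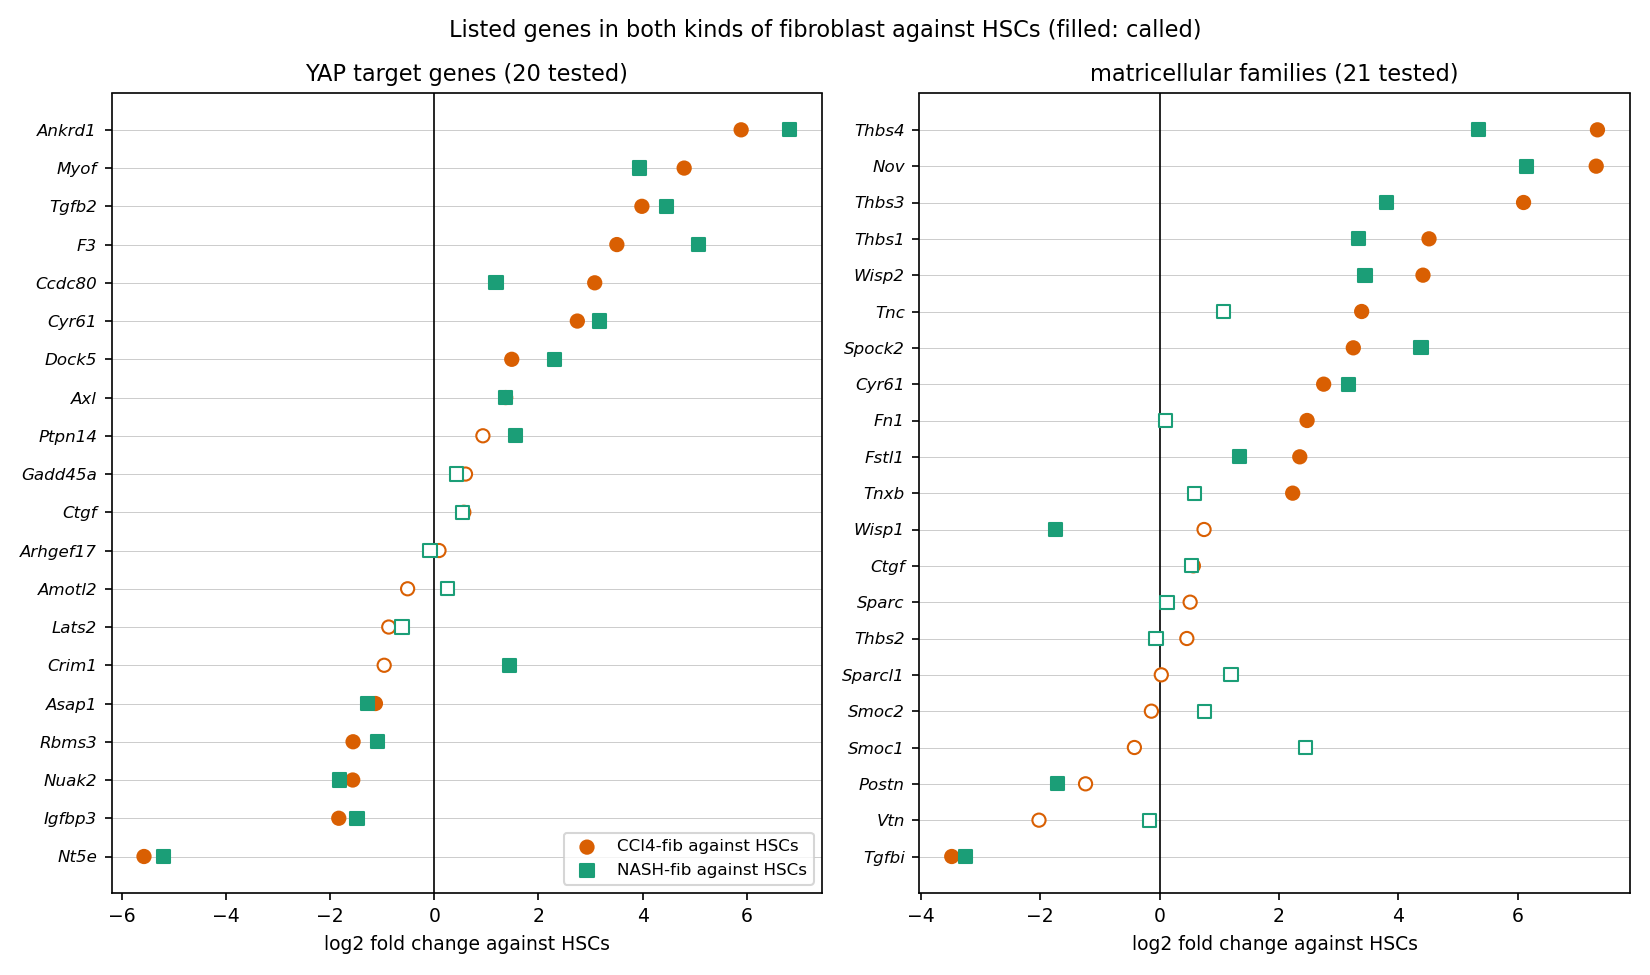
Log2 fold change against HSCs of the tested genes of the YAP target list (left, 20 genes) and the matricellular family list (right, 21 genes) in CCl4-fib (circles) and NASH-fib (squares), filled where called. In the YAP target list 8 and 10 genes were called higher, beside 16.2% and 8.23% of all tested genes. In the same list 5 and 5 were called lower, beside 11.7% and 4.30%. In the family list Thbs4 and Nov lay furthest to the right and Tgfbi furthest to the left.

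The receptors of these proteins, among them integrins and syndecans, were a list of 20 genes, all tested. In CCl4-fib against HSCs, 4 were called higher and 4 lower, beside 16.2% and 11.7% of all tested genes. NASH-fib had 4 and 3 such calls against HSCs, beside 8.23% and 4.30%. The medians were 0.11 and 0.28, and the share called higher in CCl4-fib was near that of all genes. Itga11, a collagen-binding integrin chain of fibroblasts, had at most 1 read in any HSC library, and its mean was at least 14.9-fold (CCl4-fib) and 17.8-fold (NASH-fib) higher than the floor there. The syndecan gene Sdc2 was called higher in both, at log2 fold changes of 1.72 and 1.71, and Itgb8 (2.52) and Sdc1 (2.14) in CCl4-fib. Itgb6, an epithelial integrin chain, was at 0 in every CCl4-fib library, had at most 1 read in HSCs and stood at 31.3, 21.4 and 25.6 in NASH-fib, which was at least 6.82-fold higher than the floor in HSCs. Ptprz1, a tenascin-binding phosphatase, was also called higher in NASH-fib at 3.59 (adjusted p = 0.0344).

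The scavenger receptor gene Stab1 was called lower in CCl4-fib at -4.28 and in NASH-fib at -3.02, as were the tenascin receptor chain Itga9 (-2.76 and -2.34) and Itgb3 (-2.67 and -2.72). The thrombospondin receptor gene Cd36 was called lower in CCl4-fib, at -2.59, with values of 916, 2033 and 1192 in HSCs, with 194, 253 and 205 in CCl4-fib and with 4952, 387 and 1288 in NASH-fib. Stab1 and Cd36 are also made by endothelial cells, whose 8 markers summed to 7188 to 15348 in HSCs, 229.9 to 271 in CCl4-fib and 1118 to 3754 in NASH-fib, with none at 0 throughout a group. Their part in these results was not tested. Between the kinds of fibroblast, Itgb6, Itga4 (3.35) and Cd36 (2.64) were called higher and Lrp1 (-2.16) lower in NASH-fib.

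A list of 22 known YAP target genes, among them Ankrd1, Cyr61 and Ctgf, had 20 genes with enough reads to be tested. In CCl4-fib against HSCs, 8 were called higher, 5 lower and 7 did not pass, beside 16.2% (higher) and 11.7% (lower) of all tested genes. The median was 0.58, beside 0.18 over all tested genes. In NASH-fib against HSCs, 10 were called higher, 5 lower and 5 did not pass, beside 8.23% (higher) and 4.30% (lower) of all tested genes. The median was 0.86, beside -0.022 over all tested genes. Without the 3 genes already described, CCl4-fib had 6 of 17 called higher and 5 lower, and NASH-fib had 8 and 5. The list therefore went in both directions. Tgfb2, a TGF-β ligand, had values of 58.5, 30.6 and 34.7 in HSCs, of 545, 696 and 702 in CCl4-fib and of 1266, 799.8 and 701 in NASH-fib, at log2 fold changes of 3.99 and 4.46. Myof, which repairs membranes, was called higher at 4.80 and 3.95, and F3, the tissue factor that starts coagulation, at 3.51 and 5.08. Ccdc80, a secreted matrix-binding protein, was at 1876, 1632 and 2244 in HSCs, with 14858, 15978 and 17587 in CCl4-fib and with 4162, 5047 and 3851 in NASH-fib. It was called higher in both, at 3.08 and 1.19, and lower in NASH-fib than in CCl4-fib at -1.90 (adjusted p = 0.00863), the same order as Fn1 and Tnc. Ccdc80 reached 5.16 reads per exonic base in CCl4-fib, so its values there can be flattened, like those of Sparc. Dock5, an activator of Rac, was called higher at 1.49 in CCl4-fib and at 2.31 in NASH-fib.

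The target gene furthest below HSCs was Nt5e, which encodes the ecto-nucleotidase CD73, with values of 711, 997 and 427 in HSCs, of 3.97, 29.8 and 17.2 in CCl4-fib and of 12.2, 9.80 and 41.3 in NASH-fib. Every fibroblast library was below every HSC library, at log2 fold changes of -5.58 (adjusted p = 0.000433) and -5.21 (adjusted p = 0.00103). Igfbp3, a carrier of insulin-like growth factors, was called lower at -1.84 and -1.49, and the kinase gene Nuak2 at -1.57 and -1.82. The RNA-binding protein gene Rbms3 was called lower at -1.56 and -1.09, and Asap1 at -1.13 and -1.28. Crim1, a membrane protein that binds bone morphogenetic proteins, was the target gene called higher in NASH-fib than in CCl4-fib, at 2.40 (adjusted p = 0.0114), with values of 747, 1265 and 520.1 in HSCs, with 538, 418 and 293 in CCl4-fib and with 3078, 1731 and 1841 in NASH-fib.

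Among the 18 tested of 19 genes of the Hippo pathway and the partners of YAP, 3 were called higher and 3 lower in CCl4-fib against HSCs, beside 16.2% and 11.7% of all tested genes. NASH-fib had 1 higher and 0 lower against HSCs, beside 8.23% and 4.30%. Between the kinds of fibroblast 0 were called in either direction, beside 4.97% and 5.66%. The counts of the list were thus near the shares of all genes. Yap1 itself had values of 602, 647 and 467 in HSCs, of 236, 281 and 256 in CCl4-fib and of 461, 406 and 298 in NASH-fib. It was called lower in CCl4-fib, at -1.14 ± 0.32 (SE, adjusted p = 0.0229), and gave -0.57 (adjusted p = 0.351) in NASH-fib. The Hippo activators Mob1b (-1.82, adjusted p = 0.0493) and Sav1 (-1.58, adjusted p = 0.0410) were also called lower in CCl4-fib. Vgll3, a TEAD cofactor, had values of 4.68, 14.6 and 4.78 in HSCs, of 145, 191 and 232 in CCl4-fib and of 201, 171 and 135 in NASH-fib. It was the gene of this list called in both, at 4.55 (adjusted p = 0.000120) and 4.39 (adjusted p = 0.000241). Vgll4, a TEAD cofactor that competes with YAP, and Tead3 were called higher in CCl4-fib at 2.84 and 1.94, although the Vgll4 values of HSCs and CCl4-fib overlapped. These are transcript levels, and the activity of YAP, which depends on its phosphorylation and place in the cell, was not measured.

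Immediate-early genes, which cells switch on within minutes of a stimulus such as serum, stretch or dissociation, moved with Thbs1, Cyr61 and Ankrd1. Cyr61 is itself known as such a gene. The 20 genes of the list, none at 0 throughout a group, summed to 3135 to 3923 in HSCs, 20064 to 26399 in CCl4-fib and 15305 to 21636 in NASH-fib. Of the 19 tested, 16 were called higher in CCl4-fib and 13 in NASH-fib against HSCs, beside 16.2% and 8.23% of all tested genes. In either comparison 0 were called lower, beside 11.7% and 4.30%. In NASH-fib against CCl4-fib, 3 were called lower, beside 5.66%. Fos was called higher at 5.60 and 4.85, Nr4a1 at 5.40 and 4.89, Egr3 at 4.17 and 4.48 and Btg2 at 3.98 and 4.20, while Ier3 was called in CCl4-fib at 4.44 and gave 1.07 (adjusted p = 0.153) in NASH-fib. Lower in NASH-fib than in CCl4-fib were Ier3 (-3.37), Zfp36 (-2.06) and Ier2 (-1.85). Their part in the higher values of Thbs1, Cyr61 and Ankrd1 was not tested, and the groups that were high are those that were sorted.

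**Figure D5:**
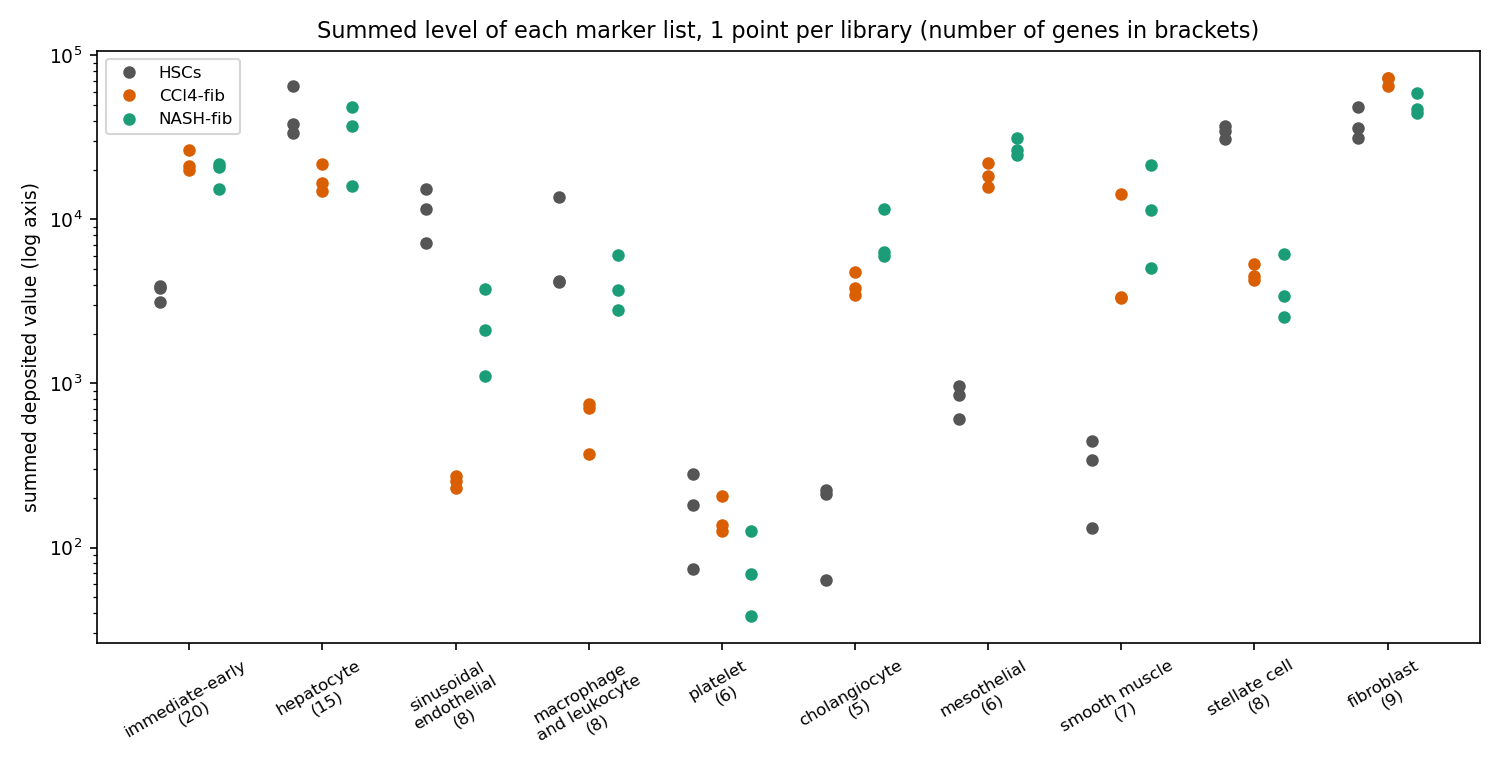
Summed deposited value (log axis) of each list of markers in the 9 libraries, with the number of genes in brackets and 1 point per library. Immediate-early, cholangiocyte, mesothelial and smooth muscle sums were higher in all fibroblast libraries than in any HSC library, and stellate cell and sinusoidal endothelial sums were lower.

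Markers of other cells moved with the groups as well. The 6 mesothelial markers summed to 606 to 961 in HSCs, 15652 to 21913 in CCl4-fib and 24768 to 31366 in NASH-fib. None was at 0 throughout a group. In NASH-fib against CCl4-fib their median log2 fold change was -0.15. There 0 were called higher and 1 lower (Wt1, -1.67), beside 4.97% and 5.66% of all tested genes. The sums include Gpm6a, at mean values of 6797 in CCl4-fib and 15353 in NASH-fib. The 5 cholangiocyte markers summed to 63.1 to 226 in HSCs, 3475 to 4750.1 in CCl4-fib and 5963 to 11604 in NASH-fib, with none at 0. Mean values in CCl4-fib and NASH-fib were 1881 and 290 for Krt19, 303 and 285 for Krt7, 190 and 398 for Sox9 and 3.57 and 41.6 for Epcam. Most of the NASH-fib sum thus lay on the remaining marker, and Krt19 went the other way. In NASH-fib against CCl4-fib only Epcam was called (3.40). The 7 smooth muscle markers, of which Casq2 was at 0 in HSCs, summed to 131 to 446 in HSCs, 3297 to 14306 in CCl4-fib and 5027 to 21462 in NASH-fib. CCl4-fib replicate 1 was the highest of its group in smooth muscle markers and the lowest in Ankrd1, Thbs1, Tnc and Cyr61. The 8 macrophage and leukocyte markers summed to 4125 to 13636 in HSCs, 374 to 752 in CCl4-fib and 2784 to 6082 in NASH-fib. None was at 0 throughout a group. Ptprc, the gene of CD45, had a mean value in NASH-fib 1.05-fold that of HSCs and 11.7-fold that of CCl4-fib, although both sorts were gated as CD45-negative. The 6 platelet markers, of which Treml1 was at 0 in both kinds of fibroblast and Gp9 in NASH-fib, summed to 74.3 to 279.8 in HSCs, 127 to 205 in CCl4-fib and 38.1 to 126 in NASH-fib. The platelet markers did not move together. Gp1bb was called higher in CCl4-fib (3.25) and in NASH-fib (3.11) than in HSCs, while Ppbp was called lower in CCl4-fib (-4.25). In NASH-fib, Ppbp gave -3.28 and did not pass. The median log2 fold change of the 4 tested platelet markers was 0.19 in CCl4-fib and -1.97 in NASH-fib. Platelets carry much thrombospondin 1. The part of these other cells in the values of the 10 genes was not tested.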

How the data were processed

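Single-end reads of SMARTer-amplified RNA from pooled cells were measured in 9 libraries, 3 per group. The authors aligned reads to mm10 with STAR (CASAVA is also named in the submitters' processing notes). Per the file headers, the deposited signal per gene is a HOMER read count on RefSeq exons, of both strands and at most 3 reads per position, with 1 entry per gene, scaled by a DESeq2 normalization run over 10 libraries. The tenth library is not analysed here, and 0 columns of values were left unused. Each library sums to 4471988 to 4471995, which scaling to the total gives and DESeq2 size factors would not. Relative to that scaling, DESeq2 size factors of the recovered reads ran from 0.857 (NASH-fib replicate 1) to 1.11 (CCl4-fib replicate 2). The main fit therefore used values scaled to the total, whatever the header names. The values of each library are whole reads times 1 factor. Division by that factor gave whole reads (within 0.1) for 100% of values, and these recovered reads give the depths stated. A group with at most 3 reads in each library was treated as at the floor, which, like intervals from counts, covers counting error only, since amplified reads are not independent molecules.

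Groups were compared with limma 3.58.1 (R 4.3.3) on log2(value + 1), with a trend in the prior spread and 1 fit over 9 libraries, for genes passing filterByExpr of edgeR 4.0.16 (minimum count 10 on recovered reads). A fold change on this scale understates the change of low genes. P-values were adjusted over the 13651 genes tested by the method of Benjamini and Hochberg. The design had named edgeR for raw counts and limma for a normalised signal, and the file holds the latter. The procedure was tested on simulated data. Promoter windows came from RefSeq (GRCm38.p6), and overlapping exons from GENCODE. Alternatives were edgeR, DESeq2 1.42.0, other scalings, filters, pseudocounts, blocks and each library left out. The 10 genes, the gene lists and the markers were chosen with earlier results of these data known. Genes named were all 10, per list, comparison and direction the 4 called genes with the largest change, and per gene the 2 most correlated genes. A cholangiocyte marker and a gene correlated with Tnxb are not reported here. Values named outside this rule, chosen after they were seen, are those of Yap1 in NASH-fib, those of single marker genes and the matches of Amotl2, Axl and Ptpn14.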

Additional observations from a re-analysis of the deposited data

How the results depend on the processing

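Each of the 30 log2 fold changes of the 10 genes was recomputed under 20 alternatives, 1 of which, leaving out HSC replicate 2 and NASH-fib replicate 1, was chosen after seeing the data. The calls of Ankrd1, Thbs1 and Cyr61 against HSCs in both kinds of fibroblast, of Fn1 and Tnc in CCl4-fib against HSCs and of Fn1 in NASH-fib against CCl4-fib held under all 20. Leaving out each library in turn gave 5 to 7 called genes in CCl4-fib against HSCs, 3 to 4 in NASH-fib against HSCs and 1 to 2 in NASH-fib against CCl4-fib, the last being 1 when CCl4-fib replicate 2 or NASH-fib replicate 3 was left out, which lost Tnc. The weaker calls of Tnxb and Postn are given beside their values, and with DESeq2, a pseudocount of 10 or only the 2 groups fitted, or without HSC replicate 3, NASH-fib replicate 1 or NASH-fib replicate 2, Postn was also called lower in CCl4-fib.

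Values that changed sign were small and not called. Ctgf in NASH-fib against CCl4-fib turned to 0.14 with edgeR, 0.12 with DESeq2, 0.16 with values rescaled by TMM and 0.077 with the upper quartile, and ran from -0.27 to 0.32 as each library was left out, above 0 without CCl4-fib replicate 3 (0.32) or NASH-fib replicate 3 (0.31). In NASH-fib against HSCs, leaving out each library gave -0.031 to 0.22 for Fn1, below 0 without HSC replicate 3, and -0.084 to 0.28 for Sparc, below 0 without HSC replicate 2 and at -0.026 without that library and NASH-fib replicate 1. Thbs2 ran there from -0.22 to 0.11, above 0 without HSC replicate 1, NASH-fib replicate 1 (0.0067) or NASH-fib replicate 3 (0.034), and turned to 0.0065 with TMM and 0.036 with the date as a block. The cause was not tested.

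Scaling moved the median of all genes by -0.17 to -0.09 in CCl4-fib against HSCs and by 0.10 to 0.25 in NASH-fib against CCl4-fib. Over all genes, NASH-fib against CCl4-fib had 678 called higher and 773 lower, which became 802 and 563 with edgeR, 1518 and 1161 with DESeq2, 472 and 457 with the replicate block and 344 and 249 with the date block. They fell most without NASH-fib replicate 3 (113 and 156) or CCl4-fib replicate 2 (140 and 72), and were 337 and 195 without CCl4-fib replicate 1, 297 and 398 without CCl4-fib replicate 3 and 326 and 358 without NASH-fib replicate 1. In CCl4-fib against HSCs, 2209 higher and 1592 lower became 1404 and 1144 without CCl4-fib replicate 1, 1344 and 1102 without CCl4-fib replicate 2 and 1422 and 1054 with the date block. For NASH-fib against HSCs, 1124 and 587 became 933 and 325 without HSC replicate 1 and 549 and 119 with the date block. The replicate numbers did not pair the libraries, since deviations of same-numbered libraries correlated from -0.473 to 0.514. With the replicate number as a block, 6, 4 and 2 of the 10 genes were called, as without it. Over all genes that block gave 1915 higher and 1397 lower, 1017 and 470, and 472 and 457. Low depth limits Ankrd1 in HSCs, where only a lower bound of the fold change can be given.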
